A study of Mus musculus with 30 samples.

Results

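Translation initiation factors are the proteins that bring an mRNA, the initiator tRNA and the ribosomal subunits together at the start codon. They were taken here as every probe set with exactly 1 platform gene symbol that begins with Eif1, Eif2, Eif3, Eif4, Eif5 or Eif6, leaving out the Eif2ak kinases. This gave 94 probe sets of 38 genes, out of 22626 probe sets that are not array controls. Of these, 79 reached a mean of 4 on the log2 scale over all arrays and were tested, among 12944 probe sets tested in all. The other 15 lay below that level, among them all 3 probe sets of Eif4ebp1, so 37 genes had a tested probe set. The rest of the 15 were 3 probe sets of Eif4e2, 2 each of Eif2d, Eif3h and Eif4ebp2, and 1 each of Eif2s2, Eif4e and Eif4g2. The family drew attention because of 1 Eif3a probe set, whose values were lower in haloperidol than in control arrays when array cluster entered the fit as a block. All values of the family in haloperidol against control are therefore given as a description, and nothing is read from a p-value in it. A further 5 probe sets with several symbols (Eif3j1 with Eif3j2, Eif4a3 or Eif1a with other genes) were left out.

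RNA was measured on Affymetrix MOE430A chips, on which each probe set reads a mouse transcript with several short oligonucleotides, with 1 array per mouse. The 30 mice were C57BL males, a common inbred strain, housed singly, with 10 mice in each of 3 groups: untreated, clozapine at 12 mg/kg/day and haloperidol at 1.6 mg/kg/day. Both drugs were dissolved in the drinking water for 12 weeks, and RNA came from the frozen forebrain of 1 hemisphere, which the labels call right in some fields and left in another. The labels give an age of 4 weeks, which cannot be the age after 12 weeks of treatment, and the note on the haloperidol dose names clozapine. Of these antipsychotics, haloperidol is a classical blocker of dopamine receptors, while clozapine, the atypical drug, has a broader receptor profile. The question was how each drug, given for weeks, alters gene expression in the forebrain, so each drug was set against the untreated mice and the drugs against each other.

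Initiation runs in steps, and most steps have their own complex. The factor eIF2 carries the initiator tRNA to the small ribosomal subunit, and eIF2B recharges eIF2 with GTP after each round. The factors eIF1, eIF1A, eIF3 and eIF5 assemble on the small subunit and guide the scan for the start codon. The cap-binding complex eIF4F, made of eIF4E, eIF4G and the helicase eIF4A, loads the mRNA, and the eIF4E-binding proteins restrain it. In neurons these steps are known as control points for the protein synthesis that long-lasting synaptic change needs. Stress kinases that act on eIF2 and the mTOR pathway that acts on the eIF4E-binding proteins work through protein phosphorylation, which these arrays do not measure.

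The deposited values are log2 probe-set intensities made with GCRMA, and differences below are differences of group means on that scale. A level of 1 probe set is not comparable with that of another, because probes bind with different strength. Array medians ran from 4.63 to 4.88. Average-linkage clustering of all tested probe sets put 11 arrays in a cluster called A, 8 in B and 7 in C, and left control 1, clozapine 7, haloperidol 2 and haloperidol 7 on their own. Cluster C held 5 clozapine, 2 control and 0 haloperidol arrays. RNA quality was read from how far the 3′ probe sets of Actb and Gapdh exceeded their 5′ probe sets. This excess averaged 1.07 ± 1.09 (SD, n = 10) in control, 0.94 ± 0.24 in clozapine and 0.81 ± 0.61 in haloperidol, with control 1 at 4.09 and haloperidol 7 at 2.45, and is called the RNA quality measure below. All 6 measured markers of forebrain neurons had means of at least 4, with Snap25 at 13.15 and Drd2 at 6.35. Of the cerebellar markers, Gabra6, Pcp2 and Cbln3 had means of 2.61 to 3.12 and Zic1 9.31, the blood markers Alas2 and Hba-a1 1.99 and 2.56, and the 4 pituitary markers 2.39 to 3.79. Single arrays lay far from these means, with Alas2 up to 5.95 and the pituitary marker Gh up to 9.17. The olfactory bulb markers Cdhr1 and Doc2g ran from 3.15 to 8.65 and from 3.94 to 9.06 over the arrays. Whether the tissue taken differed between mice was not tested. The number of arrays sets the precision: the median half-width of the 95% interval of a difference was 0.35 for the tested probe sets of the family, or 1.27-fold.

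The genes also differ in the sequence around their annotated start. Many mRNAs of the translation machinery begin with a C followed by a run of pyrimidines, the terminal oligopyrimidine tract, through which mTOR is known to govern their translation. RefSeq windows on GRCm38.p6 were found for 30 of the 38 genes. Of their 42 windows, 2 began at the start base with a C followed by at least 4 pyrimidines (sense strand only), or 4.76%, against 2.51% of 32851 windows of all genes. These 2 were Eif3f and Eif2s3x. They are shown with Eif2s3y, the Y-linked partner of Eif2s3x, whose tract starts 1 base further on, and with Eif3a, on which the results turn. Each line gives 10 bases before and 20 bases from the annotated start, with the tract in capitals:
Eif3f (chr7:108934405-108934434, plus strand): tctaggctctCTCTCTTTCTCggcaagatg
Eif2s3x (chrX:94212632-94212661, minus strand): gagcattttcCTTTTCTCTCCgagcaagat
Eif2s3y (chrY:1010585-1010614, plus strand): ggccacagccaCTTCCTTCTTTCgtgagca
Eif3a (chr19:60790674-60790703, minus strand): ctcgggcggcggcgctgccgccgcgaggga
A tract in these letters is a description of the annotated window and was not related to any measured difference.

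Over the whole family, the means of treated and untreated mice lay close together. In clozapine against control, 40 of the 79 tested probe sets had a higher and 39 a lower mean, with a median difference of 0.0051 on the log2 scale, beside 0.023 over all 12944 probe sets. Limma called 0 of the family and 0% of all probe sets at an adjusted p under 0.05. At an unadjusted p under 0.05 there were 6 of 79, 2 higher and 4 lower, where 4.35% of all tested probe sets reached that level (2.12% higher and 2.22% lower). With limma array weights, which give less weight to arrays that fit poorly, 8 of the family passed in this comparison, beside 1731 of all probe sets (13.4%), and 20 had an unadjusted p under 0.05, beside 30.9% of all. Without control 1, haloperidol 2 and haloperidol 7 the count was 15, beside 11.4% of all. In haloperidol against control, 32 had a higher and 47 a lower mean, with a median of -0.046 beside -0.030 over all probe sets, and 0 were called (0% of all). Without haloperidol 2, 39 had a higher and 40 a lower mean, with a median of -0.0094. In that comparison, which chose the family, 5 of 79 had an unadjusted p under 0.05, 1 higher and 4 lower, with Eif3a 1416661_at among them, and 2.3% of all probe sets did (0.834% higher and 1.47% lower). Between the drugs, 43 had a higher and 36 a lower mean in clozapine, with a median of 0.0063 beside 0.050, and 0 were called (0% of all). There, 4 of 79 reached an unadjusted p under 0.05, 3 higher and 1 lower, beside 3.14% of all (2.21% higher and 0.927% lower), and 7 did without haloperidol 7, beside 10.5% of all. Single arrays moved many of these differences, in the family and among all probe sets. Leaving out control 1 turned the sign of 7 of 79 in clozapine against control and 11 in haloperidol against control. Among all 12944 probe sets it turned 1512 and 1704. Leaving out haloperidol 2 turned 19 in haloperidol against control and 19 between the drugs, beside 2303 and 1754 of all. Because the arrays hold RNA of whole tissue, fewer cells of a type and less RNA per cell cannot be told apart in any of these values. The comparisons share arrays: both drugs were set against the same controls. The comparison between the drugs holds the haloperidol arrays whose values chose the family.

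**Figure D1:**
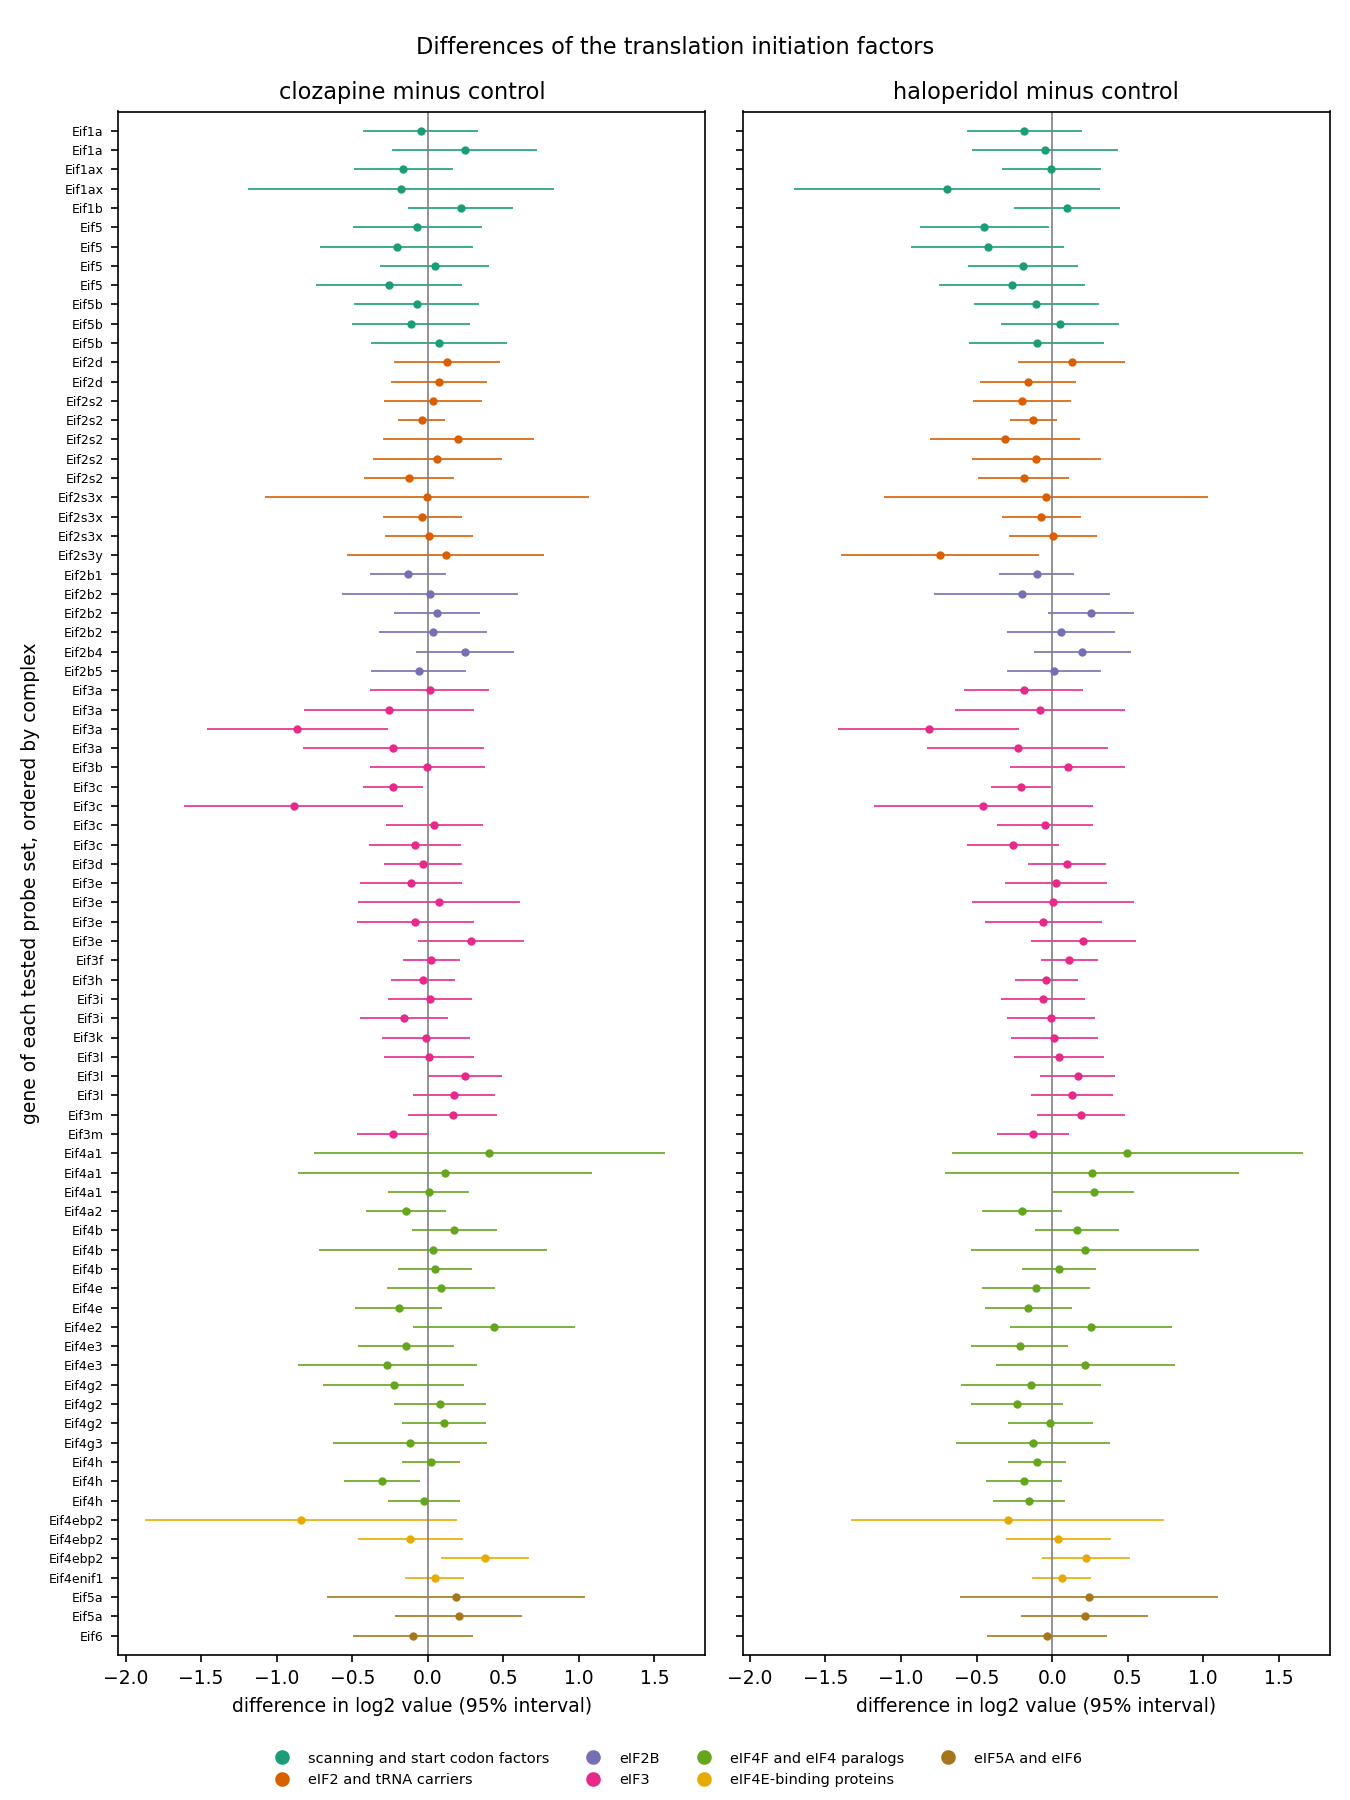
Differences in log2 value for the 79 tested probe sets of the family, clozapine minus control on the left and haloperidol minus control on the right, with 95% intervals, grouped by complex. Most intervals include 0, and the probe sets farthest below 0 belong to Eif3a, Eif3c, Eif4ebp2, Eif2s3y and Eif1ax.

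Eif3a encodes the largest subunit and scaffold of eIF3. It has 4 probe sets on the array, and they did not behave alike. Probe set 1416661_at, with a mean of 4.89, ran from 4.13 to 6.11 with a median of 5.63 in control, from 3.71 to 5.65 with a median of 4.29 in clozapine and from 3.30 to 5.40 with a median of 4.82 in haloperidol. The groups overlapped, but 10 of 10 haloperidol and 8 of 10 clozapine arrays lay below the control mean of 5.45 ± 0.66 (SD, n = 10). Haloperidol minus control was -0.82 (SE 0.29). Clozapine minus control was -0.86 (SE 0.29, 95% interval -1.46 to -0.26), or 1.82-fold lower, and did not pass the correction (limma, adjusted p = 1). It is measured against the control arrays whose values chose this probe set, so it is not independent of that choice. The drugs differed by -0.046 (95% interval -0.65 to 0.55), a difference that holds the haloperidol arrays whose values chose this probe set.

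The spread of this probe set followed the array clusters. In cluster A, 3 controls had 5.55 ± 0.17 (SD), 5 haloperidol arrays 4.78 ± 0.11 and 3 clozapine arrays 5.40 ± 0.39. The haloperidol and control arrays of this cluster did not overlap, whereas the clozapine and control arrays did. The haloperidol and control values of clusters A and B are those that picked out this probe set, so their separation is only a description. In cluster B, 4 controls had 6.02 ± 0.11 and 3 haloperidol arrays 5.10 ± 0.29, again without overlap, and the 1 clozapine array had 5.42. In cluster C, 5 clozapine arrays had 4.11 ± 0.19 and 2 controls 4.83 ± 0.058, without overlap. With so few arrays, overlap or its absence within a cluster is only a description. The share of all probe sets that separate in this way is not given here. The arrays on their own were low in every group: control 1 had 4.13, clozapine 7 had 3.71, haloperidol 2 had 3.30 and haloperidol 7 had 3.83. The within-cluster difference of haloperidol from control was -0.77 in A and -0.92 in B. That of clozapine was -0.15 in A, -0.60 in B and -0.72 in C.

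With array cluster as a block, in which the 4 arrays on their own have a term each and so add nothing to a difference, haloperidol minus control was -0.91 (SE 0.11). This is the value that picked out the family, and it was the 1 probe set called among all tested, or 0.00773%. In the same fit clozapine minus control was -0.46 (SE 0.12) and clozapine minus haloperidol 0.45 (SE 0.13), and neither was called. Each uses control or haloperidol arrays whose values chose this probe set, so both are only descriptions. The clusters were built from all tested probe sets, this one included. With the RNA quality measure as a covariate the differences were as large, -0.97 for haloperidol and -0.94 for clozapine. Without control 1 they were -0.96 and -1.01, and without haloperidol 2 the haloperidol difference was -0.67. The 4 controls of cluster B are those numbered 7 to 10, with 6.02 ± 0.11, while controls 1 to 6 had 5.07 ± 0.59. Clozapine arrays numbered 7 to 10 had 3.99 ± 0.28, against 4.99 ± 0.70 for 1 to 6, so the higher numbers had the higher values in control and the lower values in clozapine. In haloperidol the values were 4.78 ± 0.68 for 7 to 10 and 4.53 ± 0.61 for 1 to 6.

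The other 3 Eif3a probe sets had higher signals and smaller differences. Probe set 1416660_at ran from 7.08 to 8.80 with a median of 8.25 in control, from 7.42 to 8.52 with a median of 7.91 in clozapine and from 6.12 to 8.88 with a median of 8.57 in haloperidol. Control 1, haloperidol 2 and haloperidol 7 were its low values. Its haloperidol minus control difference was -0.081 (SE 0.27) over all arrays, 0.15 without haloperidol 2, 0.064 without haloperidol 7, 0.21 without these and control 1, and 0.20 with the cluster block. In cluster A it was of the opposite sign to that of 1416661_at: the 5 haloperidol arrays had 8.61 ± 0.21 and the 3 controls 8.20 ± 0.074, without overlap. This separation, too, is only a description. In cluster B the same groups had 8.56 ± 0.081 and 8.52 ± 0.22. Its clozapine minus control difference was -0.26 (95% interval -0.82 to 0.30).

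Probe set 1448425_at, with the highest signal of the 4, ran from 9.65 to 10.59 in control, from 9.11 to 10.62 in clozapine and from 7.63 to 10.93 in haloperidol, with medians of 10.12, 9.98 and 10.16. It separated clusters A and B in every group: controls had 10.55 ± 0.042 in A and 9.81 ± 0.12 in B, and haloperidol arrays 10.66 ± 0.17 and 9.72 ± 0.14. Against control it differed by -0.23 (SE 0.29) in clozapine and -0.23 (SE 0.29) in haloperidol, and without haloperidol 2 the latter was 0.028. Probe set 1416659_at had means of 9.34 ± 0.26 in control, 9.35 ± 0.19 in clozapine and 9.15 ± 0.68 in haloperidol. Haloperidol 2, at 7.32, was its low value, and without it the haloperidol difference was 0.016 instead of -0.19. Low Eif3a signal in haloperidol arrays of both cluster A and cluster B was thus seen with 1416661_at, which it picked out, and not with the other probe sets. For 1416659_at haloperidol minus control was -0.17 in A and 0.11 in B, and for 1448425_at 0.10 and -0.088, all with overlap. The parts of the transcript that each probe set reads were not analysed here.

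**Figure D2:**
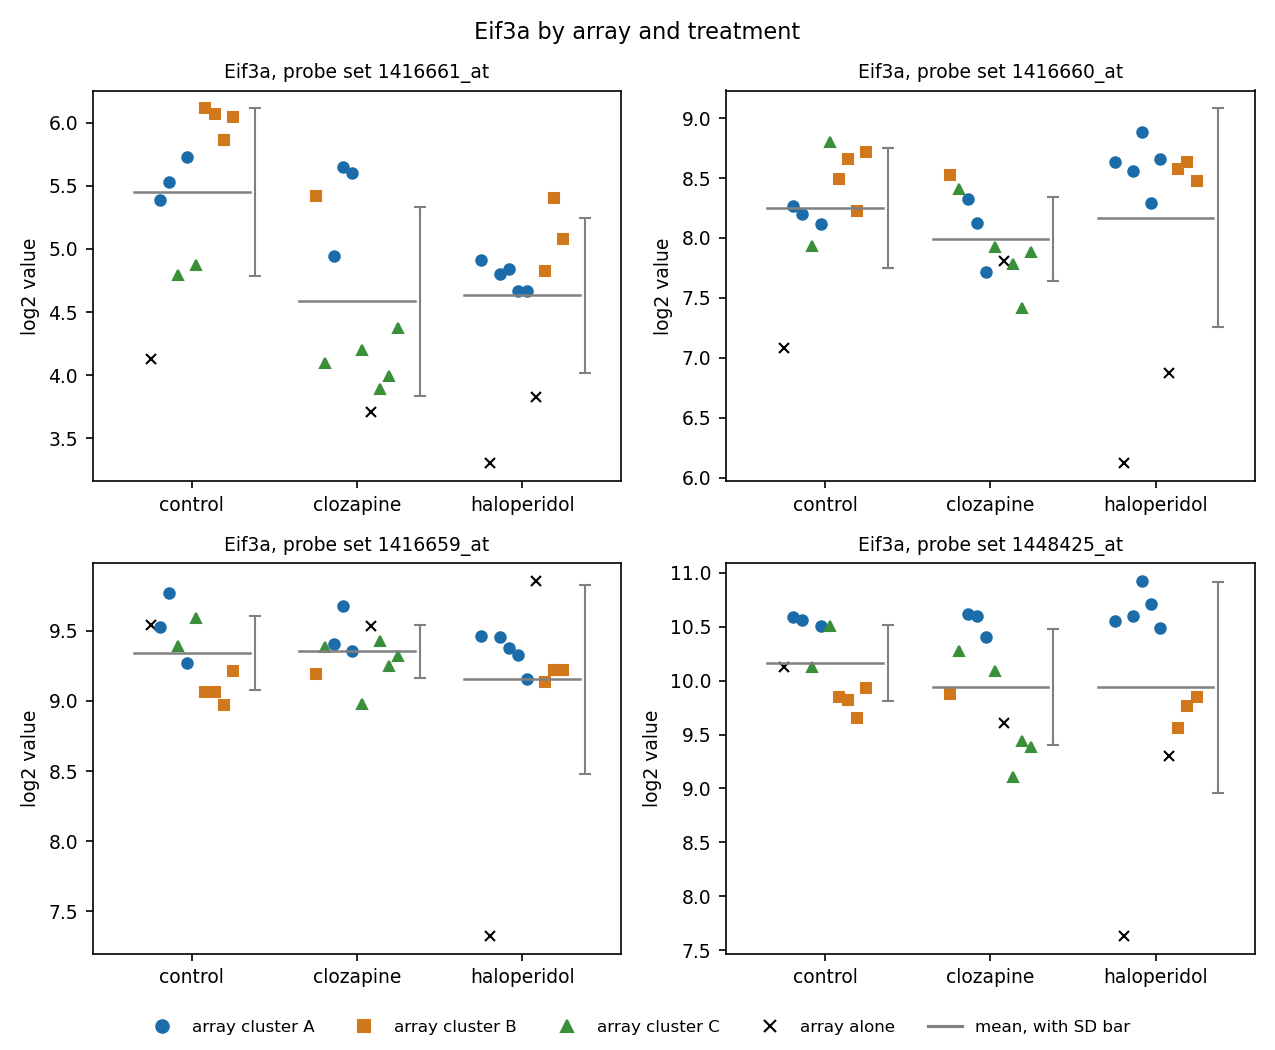
Log2 values of the 4 Eif3a probe sets, 1 symbol per mouse, by treatment, with the symbol giving the array cluster, a grey line at the group mean and a bar of 1 SD (n = 10). In 1416661_at the haloperidol arrays of clusters A and B lie below the controls of the same cluster, the difference that picked out this probe set. In 1416660_at those of cluster A lie above the controls.

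The remaining subunits of eIF3, the scaffold that holds the other factors on the small ribosomal subunit, stayed within narrow limits, apart from Eif3c. Across the 24 tested eIF3 probe sets the median difference was -0.022 in clozapine against control, with 10 higher and 14 lower, and -0.023 in haloperidol against control, with 11 higher and 13 lower. Eif3c, a core subunit that contacts eIF1 and eIF5, was measured by 4 probe sets. Probe set 1415858_at ran from 10.28 to 10.83 with a median of 10.55 in control, from 10.08 to 10.57 with a median of 10.27 in clozapine and from 9.95 to 10.72 with a median of 10.32 in haloperidol. Both drug groups lay low within an overlapping range, with 8 of 10 arrays of each drug below the control mean. Clozapine minus control was -0.23 (SE 0.097; limma adjusted p = 1) and haloperidol minus control -0.21 (SE 0.097), or -0.091 with the cluster block. Probe set 1415859_at ran from 8.23 to 10.24 with a median of 9.83 in control, from 7.01 to 9.78 with a median of 9.33 in clozapine and from 7.57 to 10.05 with a median of 9.53 in haloperidol. Its clozapine minus control difference was -0.89 (SE 0.35; limma adjusted p = 1), with 9 of 10 arrays below the control mean, and -0.54 with the cluster block. Clozapine arrays 7 to 10 were low, from 7.01 to 8.10, and the other 6 lay between 9.33 and 9.78, while controls 7 to 10 lay between 9.85 and 10.24. In haloperidol the difference was -0.46, -0.47 with the block and -0.28 without haloperidol 7. The other Eif3c probe sets differed from control by 0.044 and -0.085 in clozapine and by -0.046 and -0.26 in haloperidol.

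Eif3l, a peripheral subunit, had 3 probe sets with a higher mean in both drug groups. For 1437948_x_at, at a signal close to the filter, clozapine had 4.58 ± 0.21 and control 4.34 ± 0.21 (SD, n = 10), a difference of 0.25 (SE 0.12; limma adjusted p = 1), with 9 of 10 clozapine arrays above the control mean. The brighter Eif3l probe set, 1423728_at, differed by 0.0074 (SE 0.14) in clozapine and by 0.045 in haloperidol, where it was -0.0094 without haloperidol 2 and -0.19 with the cluster block. Eif3e, whose product lies next to the cap-binding complex on the ribosome, had 4 probe sets from -0.11 to 0.29 in clozapine and from -0.058 to 0.21 in haloperidol. The 2 probe sets of Eif3m differed in sign, -0.23 and 0.16 in clozapine. Eif3f differed by 0.023 (SE 0.092) in clozapine and 0.11 in haloperidol, Eif3h by -0.032 and -0.039, and Eif3k by -0.011 and 0.015. Eif3b, which forms the core with Eif3a, differed by -0.0021 and 0.10, the latter -0.039 without haloperidol 2, Eif3d, which can bind the mRNA cap itself, by -0.034 and 0.097, and the 2 probe sets of Eif3i by 0.013 and -0.16 in clozapine.

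Among the carriers of the initiator tRNA, Eif2s3y stood apart. It is the Y-linked gene for the gamma subunit of eIF2, the subunit that binds the tRNA, and all mice were male. Its values ran from 5.91 to 8.38 with a median of 6.86 in control, from 5.81 to 7.71 with a median of 7.10 in clozapine and from 5.04 to 8.23 with a median of 6.05 in haloperidol. The haloperidol arrays were low, with 9 of 10 below the control mean and 4 below the lowest control, and haloperidol 7 alone was high. Clozapine minus haloperidol was 0.86 (SE 0.32, 95% interval 0.21 to 1.51; limma adjusted p = 0.965), or 1.82-fold, and 0.71 with the cluster block. Haloperidol minus control was -0.74 (SE 0.32), and -0.53 with the block. It was -0.97 without haloperidol 7, -0.67 without haloperidol 2 and -0.58 without control 1, the highest control. Clozapine minus control was 0.12 (SE 0.32), and 0.28 without control 1. The X-linked copy Eif2s3x, which encodes nearly the same protein, had 3 probe sets that differed from control by -0.037 to 0.0051 in clozapine and by -0.071 to 0.0076 in haloperidol. For 1421895_at these small differences came with a value of 3.26 in control 1, where the other controls had 6.82 to 8.80. Without control 1 it differed by -0.50 in clozapine and -0.53 in haloperidol.

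Eif2s2, the beta subunit of eIF2, was measured by 5 tested probe sets, and all 5 had a lower mean in haloperidol than in control, by -0.31 to -0.11. Without haloperidol 2 the same 5 differed by -0.13 to 0.00105. In clozapine they ran from -0.12 to 0.20. Probe set 1448819_at ran from 6.39 to 7.22 with a median of 6.66 in clozapine and from 4.64 to 7.40 with a median of 6.41 in haloperidol. Clozapine minus haloperidol was 0.52 (SE 0.24; limma adjusted p = 0.965), and 0.34 without haloperidol 2. A sixth probe set lay below the filter, at a mean of 3.70. Eif2d, which can deliver tRNA without eIF2, differed by 0.13 and 0.075 in clozapine and by 0.13 and -0.16 in haloperidol. Over the 11 tested probe sets of this group, 10 had a higher mean in clozapine than in haloperidol, where 60.7% of all probe sets did, with a median of 0.086 beside 0.050 for all probe sets. Without haloperidol 2, 7 of the 11 did, and with the cluster block 6.

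The exchange factor eIF2B was represented by 4 of its 5 subunits. Eif2b4, its delta subunit, had 8.05 ± 0.37 in clozapine and 7.80 ± 0.31 in control (SD, n = 10), a difference of 0.25 (SE 0.16; limma adjusted p = 1), and 0.20 in haloperidol. Eif2b2, the beta subunit, had 3 probe sets. For 1437428_x_at the values ran from 6.19 to 7.17 in control and from 6.35 to 7.41 in haloperidol, with medians of 6.82 and 6.97, and 9 of 10 haloperidol arrays lay above the control mean. Haloperidol minus control was 0.26 (SE 0.14), and 0.43 with the cluster block. The other Eif2b2 probe sets had 0.061 and -0.20 in haloperidol, and -0.025 and -0.37 without haloperidol 2. Eif2b1 differed by -0.13 and -0.10, and Eif2b5, the catalytic subunit, by -0.060 and 0.013, in clozapine and haloperidol. The 6 probe sets had a median of 0.026 in clozapine and 0.037 in haloperidol.

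Of the factors for scanning and start codon choice, Eif5 had a lower mean in haloperidol than in control for all 4 probe sets. It encodes the factor that makes eIF2 hydrolyse its GTP when the start codon is found. Its 4 probe sets differed from control by -0.45 to -0.19 in haloperidol and by -0.26 to 0.044 in clozapine. Without haloperidol 2 the haloperidol differences were -0.33 to -0.12, and with the cluster block -0.22 to -0.024. Probe set 1415723_at ran from 9.57 to 10.65 with a median of 10.34 in control and from 8.27 to 10.60 with a median of 9.85 in haloperidol, where 8 of 10 arrays lay below the control mean. Haloperidol minus control was -0.45 (SE 0.21), and -0.11 with the cluster block. Haloperidol 2 was its lowest array, and without it the difference was -0.28. Eif1ax, a form of eIF1A, had -0.70 (SE 0.49) for 1449576_at, a probe set with an SD within groups of 1.16, and -0.17 with the block. Its other probe set had -0.0067. In clozapine the largest difference was that of the Eif5 probe set 1454664_a_at, -0.26 (SE 0.24; limma adjusted p = 1), and 0.024 with the block. Eif1a had -0.046 and 0.24, Eif1b, close kin of Eif1, had 0.22 (SE 0.17), and Eif5b, which joins the ribosomal subunits, had -0.11 to 0.075. The 12 probe sets of this group had medians of -0.071 in clozapine and -0.14 in haloperidol, the latter -0.038 without haloperidol 2.

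In the cap-binding group, the Eif4a1 probe set 1434985_a_at had a higher mean in haloperidol than in control, while the other 2 turned with control 1. Eif4a1 encodes the helicase of eIF4F that unwinds the mRNA ahead of the ribosome, and Eif4a2 its neuronal counterpart. For 1434985_a_at the values ran from 9.91 to 10.84 with a median of 10.18 in control, from 9.92 to 10.64 with a median of 10.20 in clozapine and from 9.98 to 10.77 with a median of 10.53 in haloperidol. The groups overlapped, with 9 of 10 haloperidol arrays above the control mean. Clozapine minus haloperidol was -0.27 (SE 0.13; limma adjusted p = 0.965), and haloperidol minus control was 0.27 (SE 0.13), and 0.28 without control 1. Probe set 1427058_at had a haloperidol minus control difference of 0.50 (SE 0.57), which came with a value of 3.58 in control 1 beside at least 10.62 in the other controls. Without control 1 its difference was -0.21. The remaining Eif4a1 probe set, 1430980_a_at, with control 1 at 5.54, differed by 0.11 in clozapine and 0.27 in haloperidol, and by -0.45 and -0.30 without control 1. Eif4a2 differed by -0.14 (SE 0.13) in clozapine and -0.20 in haloperidol.

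Eif4g2 encodes a relative of the eIF4G scaffold that lacks the site for eIF4E. Its probe set 1428362_at had 10.10 ± 0.33 in clozapine and 9.78 ± 0.32 in haloperidol (SD, n = 10), a difference of 0.32 (SE 0.15; limma adjusted p = 0.965), and 0.14 with the cluster block. The other tested Eif4g2 probe sets gave -0.085 and 0.12 for the same comparison. Eif4h, which stimulates the helicase, had 11.63 ± 0.25 in clozapine and 11.93 ± 0.31 in control for 1438554_x_at, a difference of -0.30 (SE 0.12; limma adjusted p = 1). Its other probe sets differed by 0.020 and -0.023. Eif4e2, a cap-binding protein that represses translation, had 4.35 ± 0.55 in clozapine and 3.91 ± 0.41 in control for its 1 tested probe set. The difference was 0.44 (SE 0.26). This probe set was the closest of the family to the filter. Its control mean lay below the filter, so it was tested only through its values in the drug groups, and the difference is a description. Just below the filter, the Eif4e probe set 1450909_at had a mean of 3.81 and differed by -0.47 (SE 0.23) in clozapine and -0.50 (SE 0.23) in haloperidol, whereas the tested probe sets of Eif4e, the cap-binding subunit itself, had 0.089 and -0.19 in clozapine and -0.11 and -0.16 in haloperidol. Eif4b, another partner of the helicase, had 0.034 to 0.18 in clozapine and 0.047 to 0.22 in haloperidol. For its probe set 1426379_at control 1 had 4.38, and without it the differences were -0.36 and -0.18. Eif4g3 had -0.12 and -0.13. The 2 probe sets of Eif4e3 had -0.27 and -0.15 in clozapine and 0.22 and -0.22 in haloperidol. The 19 tested probe sets had medians of 0.020 in clozapine and -0.10 in haloperidol, the latter 0.037 without haloperidol 2.

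The eIF4E-binding proteins compete with eIF4G for eIF4E until mTOR phosphorylates them, and Eif4ebp2 is the form known as the main one in brain. Its 3 tested probe sets disagreed. For 1437733_at, values ran from 4.85 to 5.94 with a median of 5.77 in control, from 5.79 to 6.49 with a median of 5.90 in clozapine and from 5.21 to 6.58 with a median of 5.78 in haloperidol. All 10 clozapine arrays lay above the control mean, and 4 above the highest control. Clozapine minus control was 0.38 (SE 0.14, 95% interval 0.086 to 0.67; limma adjusted p = 1), and 0.37 with the cluster block. Probe set 1417084_at ran from 3.96 to 6.98 with a median of 6.21 in control and from 3.54 to 7.14 with a median of 5.16 in clozapine, with a difference of the other sign, -0.84 (SE 0.50; limma adjusted p = 1). The third tested probe set had -0.12 (SE 0.17). In haloperidol the 3 gave 0.23, -0.30 and 0.042. That of 1417084_at was -0.53 without control 1, -0.082 without haloperidol 2 or haloperidol 7, and -0.47 with the cluster block. Eif4enif1, which carries eIF4E into the nucleus, differed by 0.046 and 0.063, and the 3 probe sets of Eif4ebp1 had means of 2.82 to 3.45, below the filter.

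Eif5a, the hypusine-bearing factor that helps ribosomes through difficult stretches, differed by 0.20 (SE 0.20) and 0.18 (SE 0.42) in clozapine, and by 0.22 and 0.24 in haloperidol. Both probe sets were low in control 1, at 10.59 and 4.52, where the control medians were 12.88 and 9.33. Without control 1 the clozapine difference of 1451470_s_at was -0.023 and the haloperidol difference of 1437859_x_at was -0.24. Eif6, which keeps the ribosomal subunits apart, differed by -0.095 (SE 0.19) in clozapine and -0.036 in haloperidol.

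**Figure D3:**
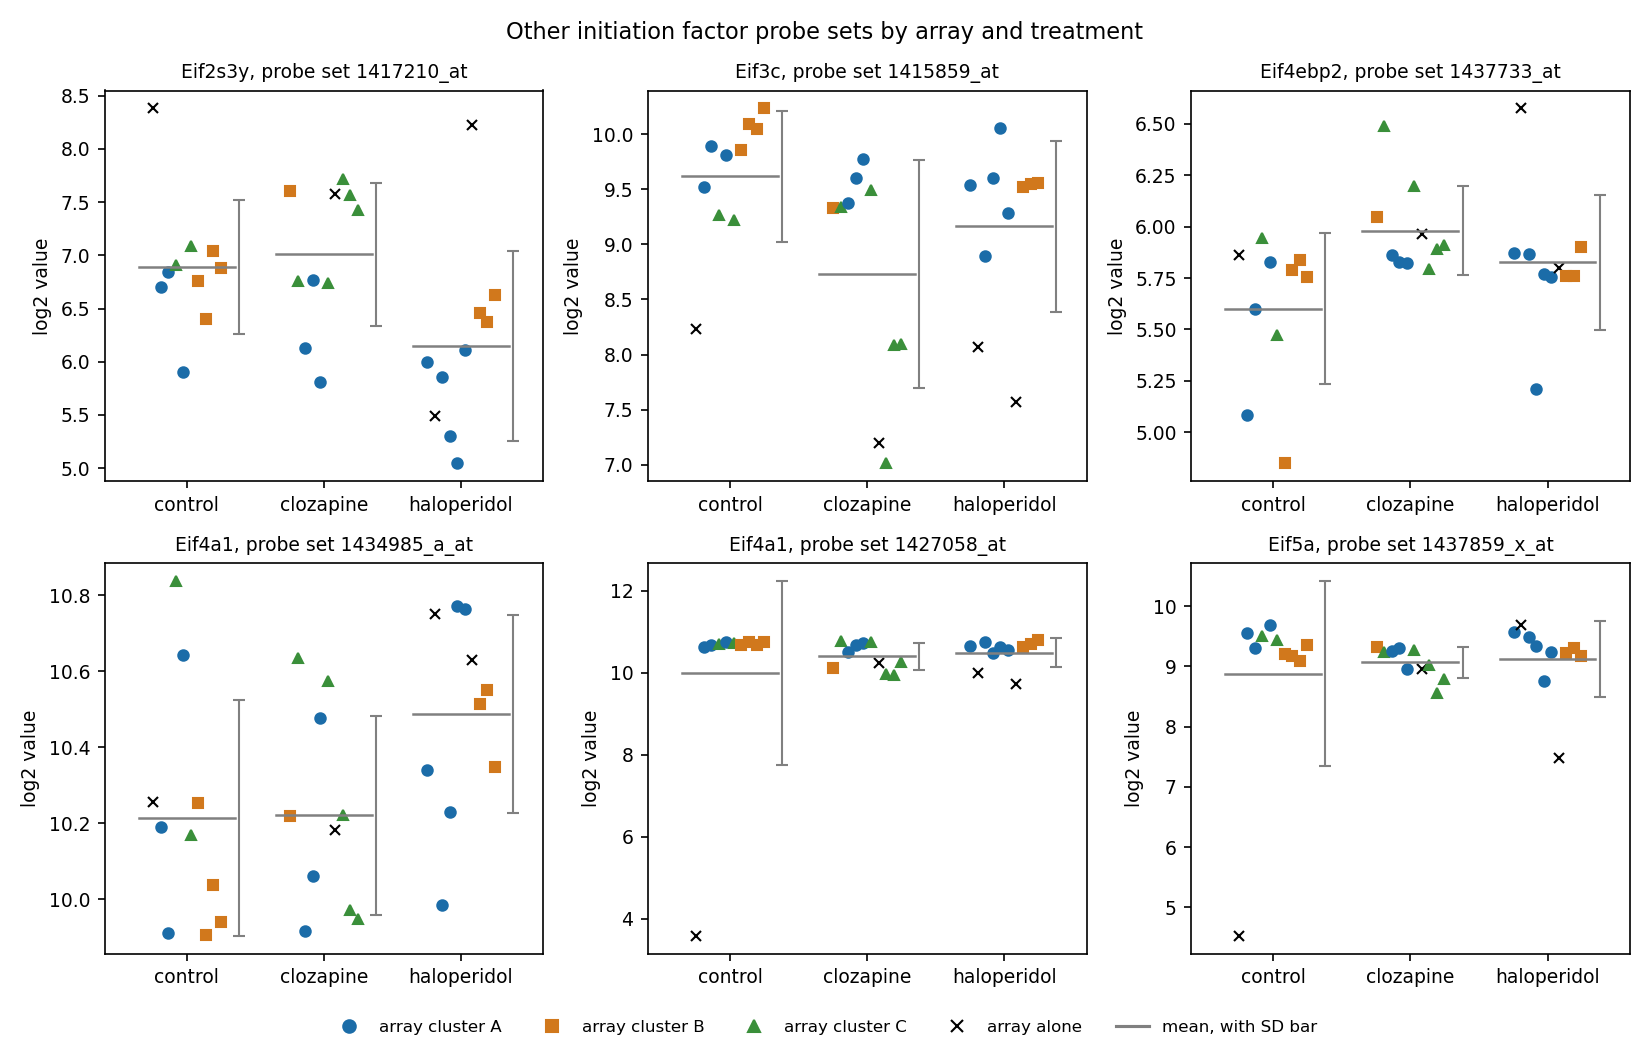
Log2 values of 6 further probe sets of the family, 1 symbol per mouse, by treatment, with the symbol giving the array cluster, a grey line at the group mean and a bar of 1 SD (n = 10). Control 1 lies far below the other controls for Eif4a1 1427058_at (3.58) and Eif5a 1437859_x_at (4.52), and haloperidol 7 far above the other haloperidol arrays for Eif2s3y (8.23).

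Probe sets of the same gene often disagreed on the sign of a difference. Of the 22 genes with at least 2 tested probe sets, 8 had the same sign in all of them in clozapine against control, 6 higher and 2 lower. In haloperidol against control 14 did, 4 higher and 10 lower, and between the drugs 7 did. Without control 1 the haloperidol count was 8, 1 higher and 7 lower, and without haloperidol 2 it was 10. The median gap between the highest and lowest difference of a gene was 0.29, 0.23 and 0.24 in these comparisons. Eif4ebp2 had the widest gap in clozapine against control, 1.22, and Eif3a in haloperidol against control, 0.74.

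**Figure D4:**
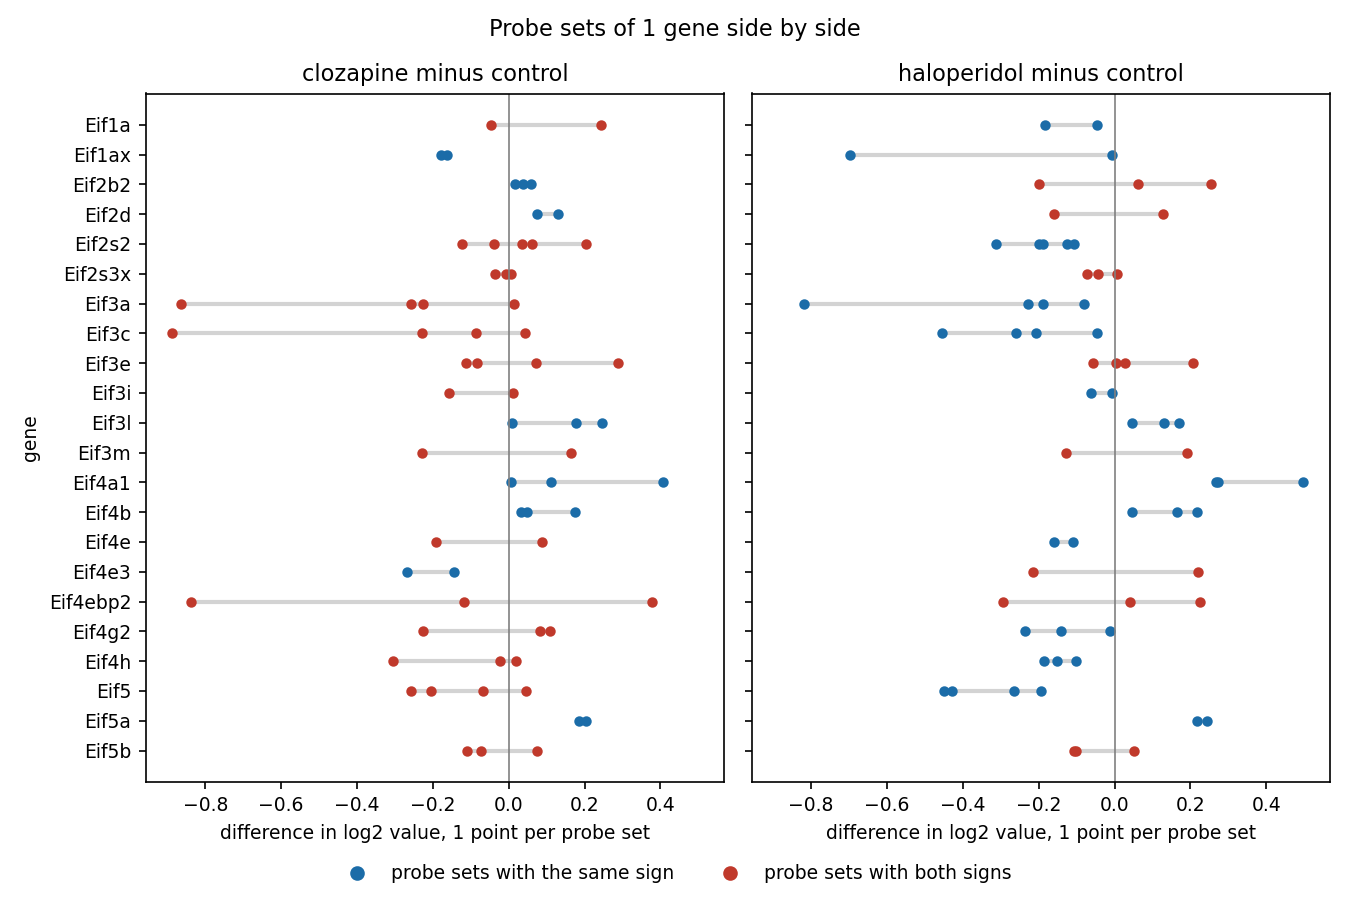
Differences of each tested probe set for the 22 genes with at least 2, clozapine minus control on the left and haloperidol minus control on the right, in log2 units, in blue where all probe sets of the gene have the same sign and in red where they do not. The widest spans are those of Eif4ebp2 and Eif3c on the left and of Eif3a and Eif1ax on the right.

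The spread between mice also differed within the family. The SD within groups had a median of 0.38 over the 79 probe sets, beside 0.44 over all tested probe sets. It was lowest for Eif2s2 1417713_at, 0.12, and highest for Eif4a1 1427058_at, 1.33, the probe set with the single low control. The clozapine minus control difference of the first was -0.040 (SE 0.075), and that of the second 0.41 (SE 0.57).

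With array cluster as a block, more of the family lay below the controls. In clozapine against control 52 of 79 then had a lower mean, beside 5994 of all 12944 probe sets. The median was -0.051, beside 0.013 over all. At an unadjusted p under 0.05 there were 11, 2 higher and 9 lower, beside 6.93% of all probe sets (3.89% higher and 3.04% lower). Limma called 0, or 0% of all. Among the 11 were Eif4a1 1427058_at, at -0.27, and Eif5a 1437859_x_at, at -0.29, for which control 1 no longer counts. In haloperidol against control, the fit that chose the family, 57 had a lower mean, beside 7302 of all 12944 probe sets. The median was -0.055, beside -0.019 over all. Between the drugs 5 had an unadjusted p under 0.05, 2 higher and 3 lower, beside 5.89% of all (3.99% higher and 1.9% lower), and 0 were called, or 0% of all.

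The rest of the pathway, from a list of eIF2 kinases, partners of initiation, mTORC1, elongation, termination and ATF4 target genes, had 63 tested probe sets of 44 genes. Limma called 0 of them in each comparison. In clozapine against control 2 had an unadjusted p under 0.05, beside 4.35% of all probe sets, both lower: Pabpc1, the poly(A)-binding protein that joins the mRNA tail to eIF4G, had 10.25 ± 0.51 against 10.69 ± 0.21 (SD, n = 10), a difference of -0.43 (SE 0.17), and the termination factor Gspt1 had -0.36 (SE 0.17), with its other probe sets at -0.34 and -0.42. In haloperidol against control 2 did, beside 2.3% of all, both higher: Atf4, the transcription factor translated when eIF2 is phosphorylated, with 0.33 (SE 0.16) for its dimmest tested probe set, close to the filter at a control mean of 4.01, and Atf5 with 0.47 (SE 0.22). The brighter Atf4 probe sets had 0.012 and -0.14, and without control 1 the dimmest Atf4 and the Atf5 differences were 0.26 and 0.38, at p = 0.11 and p = 0.084 (limma, unadjusted). Between the drugs 4 did, beside 3.14% of all, with Pabpc1 at -0.43 and a second Gspt1 probe set at -0.49 lower in clozapine, and Etf1, which recognises stop codons, at 0.38 and Paip2b at 0.47 higher. The other Gspt1 probe sets had -0.18 and -0.13 there, and the other Etf1 probe sets 0.18 and 0.0059. With the cluster block, clozapine minus control was -0.23 for Pabpc1 and -0.20, -0.15 and 0.017 for the Gspt1 probe sets. Between the drugs the block gave -0.20 for Pabpc1, -0.41 for the second Gspt1 probe set, 0.14 for Etf1 and 0.21 for Paip2b. The median difference of the eIF2 kinase and phosphatase list was 0.011 in clozapine and 0.070 in haloperidol, that of the mTORC1 list 0.13 and 0.035, and that of the elongation and termination list -0.072 and -0.079. For the list of poly(A)-binding and other partners it was 0.088 and -0.034, and for the ATF4 targets 0.094 and -0.051.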

How the data were processed

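Forebrain RNA of 30 mice was hybridised to Affymetrix MOE430A arrays. The deposited values are log2 probe-set values made by the authors with GCRMA, per the submitters' processing notes, which corrects background, normalizes between arrays and summarises probes; its version is not given in the sources used here. Samples were grouped by their titles. Gene symbols are those of the platform annotation for each probe set. After leaving out 64 control probe sets, those with a mean of at least 4 were tested in R 4.3.3 with limma 3.58.1. A linear model covered the 30 arrays with group as its term, leaving 27 residual degrees of freedom, and was moderated by eBayes. Tests were two-sided, p-values were adjusted by Benjamini-Hochberg across the whole set of probe sets tested, and a call needed an adjusted p under 0.05. The fit was tested on simulated data. The members and lists were chosen with earlier results of these data known.

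Values are printed for every Eif3a probe set, for members with an unadjusted p under 0.05 in any comparison, and for the largest difference of each complex in each drug against control; other members are given by differences. Array clusters came from average linkage on Pearson correlation, cut into 7 groups. Alternatives covered the filter, normalization, arrays left out, RNA quality, clusters, replicate numbers and array weights. Values of all members without outlying arrays were added after the data were seen. Same-numbered arrays of different groups shared no animal, so numbers were not taken as pairs. Their deviations did correlate above 0.1 in 17 of 30 pairs, with a median of 0.165, beside -0.133 for other pairs across groups. What the numbers stand for is not given in the labels, and they entered the fit only in the alternatives. The highest correlation between 2 arrays was 0.994, and 0 pairs held identical values. No other columns of samples were used.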

Additional observations from a re-analysis of the deposited data

Results flagged for a closer look

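Each of the 23 named probe sets gave a group of 10 values per treatment, 69 groups in all. In 14 of 69, the highest or lowest array was set apart by a gap above Dixon's 95% critical value. This count cannot be set against the 5% that chance gives. Apart from some of Eif3a, the probe sets were named for a low p or a large difference, which an outlying array can produce. The groups also share the same arrays, so they are not independent. Control 1 accounted for 7 of the 14. It was low for Eif3a 1416660_at (7.08), Eif3c 1415859_at (8.23), Eif4ebp2 1417084_at (3.96), Eif4a1 1427058_at (3.58), Eif5a 1451470_s_at (10.59) and Eif5a 1437859_x_at (4.52), and high for Eif2s3y (8.38). Haloperidol 2 accounted for 4: it was low for Eif3a 1416659_at (7.32), Eif3a 1448425_at (7.63) and Eif5 1415723_at (8.27), and high for Eif4ebp2 1437733_at (6.58). Haloperidol 7 was high for Eif2s3y (8.23) and low for Eif5a 1437859_x_at (7.47). Control 5 was low for Eif1ax 1449576_at (5.68). The RNA quality measure was highest in control 1 (4.09) and haloperidol 7 (2.45), and their part in these values was not tested.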

How the results depend on the processing

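The count of called probe sets was 0 in all 3 comparisons under every alternative, except that array weights (limma) called 1731 in clozapine against control and the cluster block called 1, Eif3a 1416661_at, in haloperidol against control. With array weights 7 of the probe sets named in the text for clozapine against control passed, 1416661_at among them (-1.28, limma adjusted p = 0.00227), measured against the control arrays whose values chose it. The number of the family's probe sets at an unadjusted p under 0.05 moved most. In clozapine against control it was 6, and 3 of 66 with a filter at 6. It was 15 without the 3 outlying arrays, 11 with the cluster block and 20 with array weights. The shares of all tested probe sets in that order were 4.35%, 3.88%, 11.4%, 6.93% and 30.9%. In haloperidol against control, which chose the family, so that nothing is read from its counts, the number was 5. It was 2 with only those groups fitted, 2 to 6 with 1 outlying array left out, 3 with the cluster block and 18 with array weights. The shares of all in that order were 2.3%, 1.55%, 1.87% to 5.79%, 4.24% and 23.9%. Between the drugs the number was 4, and 2 with median centring. It was 3 to 7 with 1 outlying array left out, 11 without all 3, and 11 with array weights. Here the shares of all were 3.14%, 2.99%, 3.67% to 10.5%, 17.8% and 19.1%. With the replicate number as a block the counts were 8, 7 and 7 for the comparisons in the same order, beside 6.54%, 4.17% and 4.96% of all. The deviations of each array from its group mean were also correlated with those of arrays in the other groups. For 4 of the 30 arrays the highest of these correlations was with an array of the same number.

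Signs turned in clozapine against control with the cluster block for Eif3a 1416659_at (-0.053), Eif5 1454664_a_at (0.024) and Eif5a 1451470_s_at (-0.078), and for the last also without control 1 (-0.023 to 0.20 with 1 outlying array left out) and without all 3 (-0.023). Between the drugs they turned for Eif3a 1416659_at without haloperidol 2 (-0.0030 to 0.28 with 1 outlying array left out), for 1416661_at with the RNA quality covariate (0.031) and the cluster block (0.45), and for 1448425_at with quantile normalization (-0.0040), median centring (-0.031), 1 outlying array left out (-0.26 to 0.0012), without all 3 (-0.37), with the cluster block (-0.18) and with array weights (-0.29). In haloperidol against control, given as a description, they turned for Eif3a 1416659_at (-0.27 to 0.11 over the alternatives), 1416660_at (-0.22 to 0.21) and 1448425_at (-0.28 to 0.26), Eif4a1 1427058_at (-0.21 to 0.58), Eif4ebp2 1417084_at (-0.54 to 0.096) and Eif5a 1437859_x_at (-0.24 to 0.43). The cause was not tested. With the filter at 6, Eif3a 1416661_at was not tested. The number of arrays, 10 per group, limits the precision.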
